A study of Mus musculus with 12 samples.

Results

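The Runx and Ikaros family factors comprised 8 genes taken by name from the gene column of the count matrices: Runx1, Runx2, Runx3 and Cbfb of the Runx complex, and Ikzf1, Ikzf2, Ikzf3 and Ikzf4 of the Ikaros family. All 8 were found among 33696 genes, and each was read as a level and as a share of cells in every library. Runx proteins bind DNA through the Runt domain and activate or repress their targets, and Cbfb is the partner subunit without a DNA contact of its own that raises their affinity for DNA. In T cells Runx1 is known for its part in early thymocyte development and in Cd4 silencing, Runx3 for cytotoxic and tissue-resident programmes, and Runx2, best known as the master factor of bone formation, for its expression in early thymocytes. Ikaros (Ikzf1), Helios (Ikzf2), Aiolos (Ikzf3) and Eos (Ikzf4) are zinc finger proteins that dimerize with each other and recruit the NuRD and Sin3 complexes, which remodel and deacetylate chromatin.

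Cells came from adult C57BL6/J mice that were WT or carried a germline deficiency of Gfi1, a zinc finger repressor of transcription, and were sorted as splenic CD3+ CD4neg γδ T cells, as thymic γδ T cells or as a joint sort of the thymic CD4-negative and CD8-negative precursors DN1, DN2 and DN3. B, myeloid and NK cells had been removed by magnet before the sort, and part of the CD8+ cells from the thymus. Cells of a WT and of a GFI1 KO sample were hashtagged, mixed and run in 1 pool, and the 6 pools gave 12 demultiplexed libraries, with 2 labelled WT and 2 labelled KO in each of 3 compartments. The labels do not say how many mice entered a sample, so p-values measure the spread between these libraries, and a germline deletion affects every cell of the mouse, not only the γδ T cells.

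The libraries held 6795 to 11679 cells after filtering, 42091895 to 71663962 unique molecular identifiers (UMIs, each standing for 1 captured transcript) and a median of 4947 to 6853 UMIs per cell. Libraries of 1 pool shared 0 barcodes, and any other pair shared 5 to 34. Gfi1 itself was not lower with the label KO, at 11.8 and 18.0 CPM (the gene's UMIs relative to all UMIs of the library) with the label WT and 18.1 and 18.1 CPM with the label KO in spleen, and its KO minus WT log2 difference was 0.37, 0.62 and 0.57 in spleen, thymic γδ T cells and DN cells (adjusted p = 0.137, 0.0251 and 0.0580). The 3′ tags counted here need not cover the deleted part of the gene, so the genotype rests on the labels, and a direction given below reads the libraries labelled KO against those labelled WT. The splenic libraries held at most 0.374 CPM of the X-inactivation transcript Xist and the thymic libraries at least 739 CPM, so mouse sex cannot be told apart from spleen against thymus. The thymic libraries also held the Y-linked Ddx3y, which in DN cells went from 28.02 and 26.0 CPM with the label WT to 11.6 and 14.2 CPM with the label KO (log2 −1.05, adjusted p = 0.00274), while Xist was 1488 and 1191 against 1600 and 1354 CPM there (log2 0.14, adjusted p = 0.763). Whether the mix of sexes differed between the labels in DN cells, and its part in the DN results, was not tested. Among cells with a call for the γ-chain variable gene, Trgv6 led in 3.44% to 4.31% with the label WT and 57.7% to 66.0% with the label KO in spleen, and in 0.840% to 0.991% and 44.1% to 53.3% in thymic γδ T cells. The summed level of the 10 listed markers of IL-17-producing γδ T cells (γδT17) moved with it, from 819 to 857 CPM to 9089 to 9524 CPM in spleen, from 808 to 931 CPM to 6592 to 7909 CPM in thymic γδ T cells and from 121 to 124 CPM to 822 to 1613 CPM in DN cells. The 8 markers of type 1 γδ T cells went from 1712 to 1905 CPM to 255 to 347 CPM in spleen and from 707 to 760 CPM to 288 to 400 CPM in thymic γδ T cells, but from 223 to 228 CPM to 367 to 557 CPM in DN cells. The 5 markers of NK cells and innate lymphoid cells went from 359 to 409 CPM to 1110 to 1483 CPM in spleen, from 386 to 421 CPM to 877 to 978 CPM in thymic γδ T cells and from 163 to 174 CPM to 340 to 605 CPM in DN cells. The 6 markers of αβ T cells went from 1745 to 1806 CPM to 993 to 1031 CPM in spleen and from 3175 to 3262 CPM to 1303 to 1531 CPM in thymic γδ T cells, and the 5 myeloid markers from 92.5 to 107 CPM to 313 to 337 CPM in spleen and from 90.2 to 96.5 CPM to 175 to 186 CPM in thymic γδ T cells. In spleen 2 to 3 myeloid markers were above 1 CPM with the label WT and 1 with the label KO. In thymic γδ T cells it was 1 with either label, so the myeloid sums labelled KO rest mostly on 1 gene. Of the NK and innate lymphoid markers, 5 were above 1 CPM with the label WT and 4 with the label KO in spleen. In thymic γδ T cells these were 4 against 3 to 4, and such sums do not count cells. The 4 red cell markers went from 37.1 to 41.8 CPM to 73.6 to 165 CPM in spleen, and the 5 DN3 markers from 1802 to 1840 CPM to 1287 to 1611 CPM in DN cells. In spleen the DN3 markers went from 30.3 to 32.1 CPM to 159 to 170 CPM and the 6 B cell markers from 26.8 to 30.8 CPM to 52.7 to 52.9 CPM. Only 1 marker of each was above 1 CPM there with the label KO. The 5 DN1-DN2 markers went from 31.2 to 35.8 CPM to 2.62 to 2.84 CPM in spleen. In thymic γδ T cells they went from 38.4 to 38.6 CPM to 10.1 to 18.9 CPM. The 5 cycling genes went from 1264 to 1533 CPM to 276 to 334 CPM in thymic γδ T cells and from 1407 to 1411 CPM to 843 to 1094 CPM in DN cells. The part of all these in the members' differences was not tested. In such mixtures, a change in the share of a cell subset and a change in RNA per cell cannot be told apart from whole-library values, which is why subsets are described separately further on. The DN library labelled KO replicate 1 stood apart from KO replicate 2, with 14.6% against 8.65% of its cells carrying Il2rb without the stage genes Ptcra, Il2ra and Kit, and differences in whole DN libraries that passed are given without it as well.

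**Figure D1:**
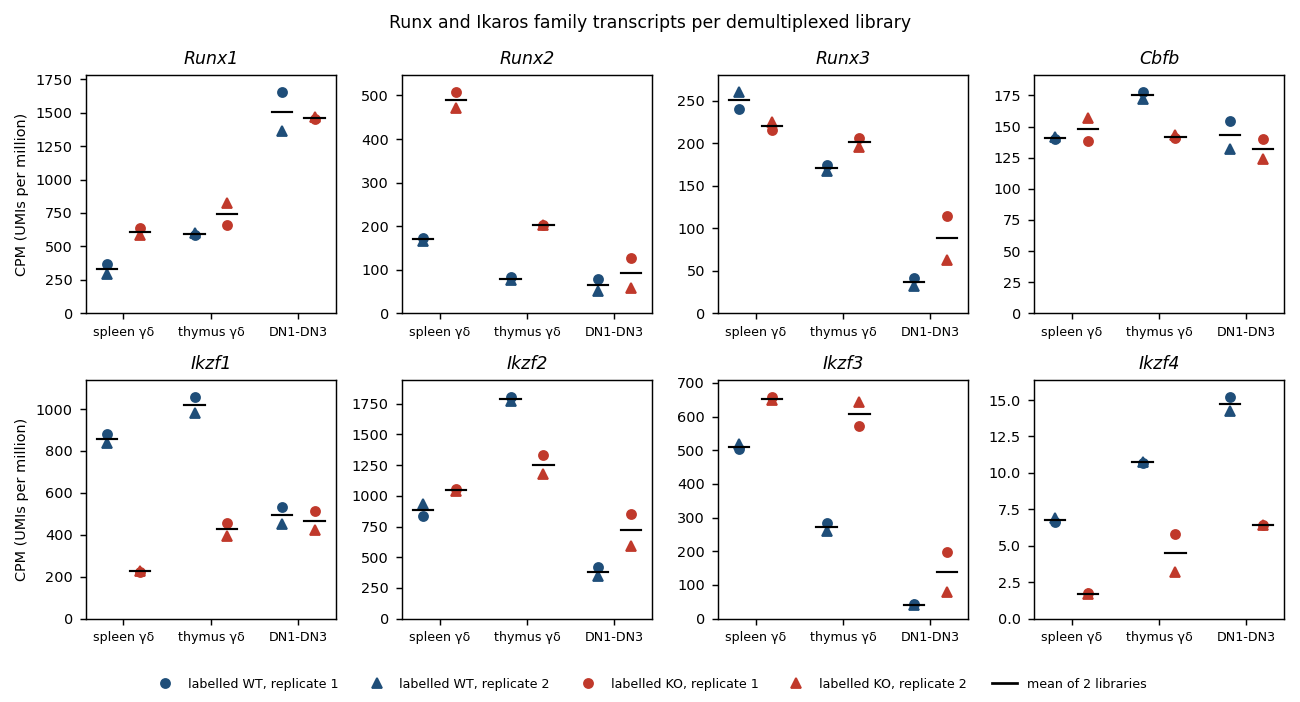
Level of each of the 8 genes in CPM (y axes, from 0, 1 scale per gene) in the 12 libraries, grouped by compartment (x axes), with circles and triangles for replicates 1 and 2, blue for the label WT, red for the label KO and a bar at the mean of 2 libraries. Ikzf1 fell from 879 and 837 CPM to 224 and 229 CPM in spleen, Runx2 rose from 174 and 167 CPM to 507 and 472 CPM, and Ikzf4 was lower with the label KO in every compartment.

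In libraries labelled WT the members differed in level between the sorts, which were run in separate pools and do not trace a single path of development. Runx1 was highest in precursors, with 1652 and 1362 CPM among DN cells, 586 and 603 CPM among thymic γδ T cells and 368 and 298 CPM in the splenic libraries. Runx3 ran the other way, from 41.0 and 32.3 CPM in DN libraries to 174 and 167 CPM in thymic and 241 and 260 CPM in splenic γδ T libraries. Cbfb stayed within a narrow band in these 6 libraries, between 132 and 178 CPM. Ikzf1 held 535 and 449 CPM in DN, 1055 and 982 CPM in thymic γδ T and 879 and 837 CPM in splenic libraries, and the difference between the last pair of compartments did not pass. Ikzf2 was highest in thymic γδ T cells, at 1801 and 1770 CPM against 417 and 344 CPM in DN cells and 832 and 930 CPM in spleen. Ikzf3 climbed from 42.7 and 39.5 CPM in DN cells to 283 and 259 CPM in thymic and 503 and 519 CPM in splenic γδ T cells. Ikzf4 was scarce everywhere, at 15.2 and 14.2 CPM in DN, 10.7 and 10.8 CPM in thymic γδ T and 6.65 and 6.90 CPM in splenic libraries, and the difference between DN and thymic γδ T cells did not pass (adjusted p = 0.0901). Runx2 was highest in spleen, at 174 and 167 CPM, and its thymic γδ T values (83.7 and 75.8 CPM) overlapped those of DN cells (77.8 and 51.3 CPM). CPM of 3′-tagged transcripts depend on how well each gene's 3′ end is captured, so they were compared between libraries and not between genes.

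Between thymic γδ T and DN libraries labelled WT, 6 of the 8 members passed the test (edgeR's quasi-likelihood test on summed counts, Benjamini-Hochberg adjusted p below 0.05), and 47.2% of all genes tested did. Log2 differences were 2.74 for Ikzf3, 2.25 for Ikzf2, 2.24 for Runx3, 1.07 for Ikzf1 and 0.31 for Cbfb, all higher in γδ T cells, and −1.32 for Runx1. The call for Cbfb was lost without thymic γδ T replicate 1 or 2 or DN replicate 2 labelled WT, with adjusted p between 0.0628 and 0.0898. Between splenic and thymic γδ T libraries labelled WT, 7 members passed against 48.8% of all genes. In spleen Runx2 was higher by a log2 difference of 1.17 (SE 0.28), Ikzf3 by 0.99 and Runx3 by 0.63, while Ikzf2 was lower at −0.94 (SE 0.14), Runx1 at −0.76, Ikzf4 at −0.58 and Cbfb at −0.24. The calls for Runx3, Cbfb and Ikzf4 were lost when any 1 of the 4 libraries was left out, with adjusted p from 0.0538 to 0.0829, 0.157 to 0.243 and 0.103 to 0.161, and that for Ikzf3 without any of them but spleen replicate 2, with adjusted p from 0.0570 to 0.0764. Runx1, Runx2 and Ikzf2 kept theirs under each of these omissions.

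The comparison of the labels KO and WT asked how the absence of GFI1 went with these factors in each compartment. In spleen 4 of the 8 members passed, 2 in each direction, beside 54.7% of the 14921 genes tested, with 28.6% higher and 26.1% lower. Among thymic γδ T cells 6 members passed, 3 in each direction, beside 49.7% of all genes, with 26.1% higher and 23.7% lower. In DN cells 4 passed, 3 higher and 1 lower, beside 23.0% of all genes, with 15.2% higher and 7.73% lower. The median size of the log2 difference was 0.71, 0.79 and 0.71 over the 8 members and 0.53, 0.46 and 0.26 over all genes. The share of members that passed in spleen was thus near that of all genes, and what follows describes the individual genes.

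**Figure D2:**
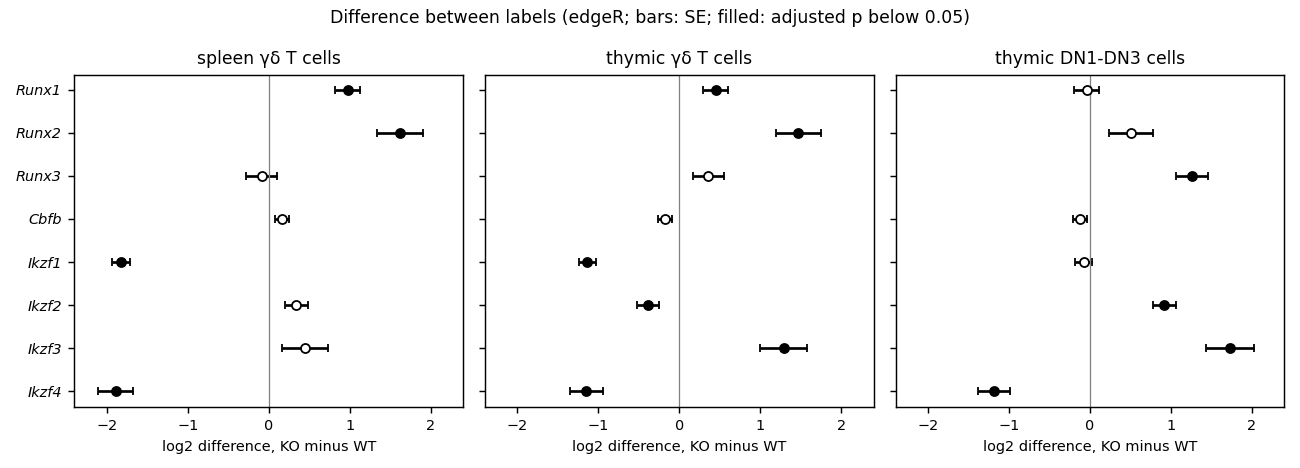
Log2 difference of the label KO minus the label WT (x axes) for the 8 genes (y axis) in each compartment, with bars for the SE of the edgeR fit and filled points for an adjusted p below 0.05. Ikzf1 lies at −1.83 in spleen, −1.14 in thymic γδ T cells and −0.08 in DN cells, while Ikzf4 lies between −1.89 and −1.15 in all 3.

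Runx1 rose in both γδ T compartments. In spleen it went from 368 and 298 CPM to 636 and 586 CPM, a log2 difference of 0.97 (SE 0.16, adjusted p = 0.000434). Thymic γδ T cells held 586 and 603 CPM with the label WT and 662 and 825 CPM with the label KO, a difference of 0.45 (SE 0.15, adjusted p = 0.0336). This thymic call was lost without WT replicate 1, WT replicate 2 or KO replicate 2, with differences of 0.43, 0.46 and 0.24 and an adjusted p of 0.140, 0.113 and 0.289, and with ribosomal, Gm and mitochondrial genes kept, at 0.0545. In DN cells the KO values of 1450 and 1467 CPM lay between the WT values, and the difference of −0.04 did not pass. The test of the difference between thymic γδ T and DN cells did not pass either (0.49, SE 0.22, adjusted p = 0.139, and 0.0475 without thymic γδ T KO replicate 1), nor did that between spleen and thymic γδ T cells (0.52, adjusted p = 0.0981, and 0.0347 without thymic γδ T KO replicate 2).

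Runx2 had the steepest rise of the Runx genes in γδ T cells. Splenic libraries went from 174 and 167 CPM to 507 and 472 CPM, a 3.08-fold difference (log2 1.62, SE 0.28, adjusted p = 0.000797), while the thymic γδ T sort went from 83.7 and 75.8 CPM to 203 and 202 CPM, a 2.76-fold difference (log2 1.47, SE 0.28, adjusted p = 0.00171). The splenic and thymic rises differed by a log2 value of 0.15 (SE 0.39, adjusted p = 0.801), within the error of that difference. In DN cells the labels overlapped, with 77.8 and 51.3 CPM against 128 and 57.6 CPM, and the difference of 0.51 did not pass (adjusted p = 0.214). It rested on KO replicate 1, without which it was −0.11, and it passed without KO replicate 2 (0.90, adjusted p = 0.00213) and with the pool as a block (0.44, adjusted p = 0.0419). The rises in thymic γδ T and DN cells differed by 0.96 (SE 0.39, adjusted p = 0.110, and 0.000862 without DN KO replicate 1).

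Runx3 rose in DN cells. It was 241 and 260 CPM with the label WT and 216 and 225 CPM with the label KO in spleen, where the difference of −0.09 did not pass (adjusted p = 0.725). In thymic γδ T cells it was 174 and 167 CPM against 206 and 196 CPM, a difference of 0.36 that passed only with the pool as a block (adjusted p = 0.0332) or in a fit of those 4 libraries alone (adjusted p = 0.00472), against 0.155 in the fit of all libraries. In DN cells it rose from 41.0 and 32.3 CPM to 114 and 62.7 CPM, a log2 difference of 1.26 (SE 0.20, adjusted p = 0.00174), which was 0.82 without KO replicate 1. Cbfb, the shared partner, moved little in any compartment, with log2 differences of 0.16, −0.18 and −0.12, of which none passed by edgeR. The unadjusted p was 0.0820, 0.0587 and 0.183, so 0 of the 3 lay below 0.05, and DESeq2 called the thymic γδ T difference (−0.20, adjusted p = 0.0350). The summed CPM of Runx1, Runx2 and Runx3 went from 844 and 847 to 1071 and 1223 in thymic γδ T cells and overlapped in DN cells, at 1771 and 1446 against 1692 and 1587. In spleen it went from 782 and 724 to 1359 and 1283, beside a Cbfb level of 140 and 141 against 139 and 157 CPM. Cbfb in thymic γδ T cells was 178 and 172 CPM with the label WT and 141 and 143 CPM with the label KO.

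Ikzf1, the founding Ikaros factor, fell in both γδ T compartments. In spleen it went from 879 and 837 CPM to 224 and 229 CPM, a fitted ratio of 0.282 (log2 −1.83, SE 0.11, adjusted p = 6.34e-07). Thymic γδ T cells fell from 1055 and 982 CPM to 457 and 395 CPM (log2 −1.14, SE 0.11, adjusted p = 2.13e-05). DN cells held 535 and 449 CPM with the label WT and 513 and 422 CPM with the label KO, which overlap, and the difference of −0.08 did not pass (adjusted p = 0.641). The fall was larger in spleen than in thymic γδ T cells by a log2 value of −0.69 (SE 0.15, adjusted p = 0.00723), in a contrast that 29.6% of all genes passed, and larger in thymic γδ T than in DN cells by −1.06 (SE 0.15, adjusted p = 0.00119, and −1.03 without DN KO replicate 1), in a contrast that 21.9% of all genes passed.

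Ikzf2, or Helios, rose in precursors and fell in thymic γδ T cells. It rose in DN cells from 417 and 344 CPM to 850 and 590 CPM (log2 0.91, SE 0.14, adjusted p = 0.00142, and 0.68 without KO replicate 1). Among γδ T cells of the thymus it fell from 1801 and 1770 CPM to 1330 and 1180 CPM (log2 −0.39, SE 0.14, adjusted p = 0.0419), a call that was lost when any 1 of the 4 libraries was left out, with adjusted p from 0.0863 to 0.176. In spleen it was 832 and 930 CPM against 1052 and 1036 CPM, with no overlap of the labels, and the difference of 0.34 missed the threshold (adjusted p = 0.0633). It passed with the pool as a block (adjusted p = 0.0154), by DESeq2 (0.0356) and in a fit of the splenic libraries alone (0.0209). The test of the difference itself separated thymic γδ T cells from DN cells by −1.30 (SE 0.20, adjusted p = 0.00184, and −1.14 without DN KO replicate 1), and spleen from thymic γδ T cells by 0.73 (SE 0.20, adjusted p = 0.0211). The latter call was lost in 6 of 8 fits that left out 1 library, all but those without spleen KO replicate 2 or thymic γδ T KO replicate 1, with adjusted p up to 0.0827. Runx3 differed between thymic γδ T and DN cells by −0.90 (SE 0.28, adjusted p = 0.0426), a call also lost in 6 of 8 such fits, kept without either DN library labelled KO, at −0.53 without KO replicate 1 and −1.27 without KO replicate 2.

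Ikzf3, or Aiolos, rose in DN and thymic γδ T cells. It went from 42.7 and 39.5 CPM to 197 and 79.6 CPM in DN cells (log2 1.73, SE 0.30, adjusted p = 0.00270, and 1.00 without KO replicate 1) and from 283 and 259 CPM to 572 and 644 CPM in thymic γδ T cells (log2 1.29, SE 0.29, adjusted p = 0.00444). In spleen it was 503 and 519 CPM against 657 and 650 CPM, without overlap, and the difference of 0.45 passed only in a fit of those 4 libraries (adjusted p = 0.00291, against 0.208). The tests of the difference did not pass, at −0.44 for thymic γδ T minus DN cells (adjusted p = 0.488, and 0.00150 without DN KO replicate 2) and −0.84 for spleen minus thymic γδ T cells (adjusted p = 0.148). Ikzf4, or Eos, was the member that fell in all 3 compartments, from 6.65 and 6.90 to 1.75 and 1.68 CPM in spleen (log2 −1.89, SE 0.22, adjusted p = 4.26e-05), from 10.7 and 10.8 to 5.78 and 3.17 CPM in thymic γδ T cells (log2 −1.15, SE 0.20, adjusted p = 0.000952) and from 15.2 and 14.2 to 6.43 and 6.45 CPM in DN cells (log2 −1.19, adjusted p = 0.00208, and −1.14 without KO replicate 1). These levels rest on 82 to 938 UMIs per library. Neither interaction called a difference of the Ikzf4 fall between compartments, with adjusted p of 0.0834 and 0.943, although without thymic γδ T KO replicate 2 the fall in spleen was larger by −1.08 (adjusted p = 0.00294). The ratio of Ikzf2 to Ikzf1 UMIs within a library went from 0.947 and 1.11 to 4.70 and 4.52 in spleen, from 1.71 and 1.80 to 2.91 and 2.99 in thymic γδ T cells and from 0.780 and 0.765 to 1.66 and 1.40 in DN cells, higher with the label KO in every pool.

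Promoter windows of GRCm38.p6 from RefSeq were at hand for 5 of the 8 members, and those of Ikzf1 and Runx2, which fell and rose in both γδ T compartments, are shown with their motifs. The 250 bases before each start were searched on both strands for AAATCA, a core of GFI1 sites, for TGTGGT, the core bound by Runx proteins, and for TGGGAA, the Ikaros core, and matches stand in capitals. Of 32851 such windows of all genes, 12.4% held the first motif, 14.0% the second and 21.6% the third.
Ikzf1, second start, chr11:11689927-11690176, + strand: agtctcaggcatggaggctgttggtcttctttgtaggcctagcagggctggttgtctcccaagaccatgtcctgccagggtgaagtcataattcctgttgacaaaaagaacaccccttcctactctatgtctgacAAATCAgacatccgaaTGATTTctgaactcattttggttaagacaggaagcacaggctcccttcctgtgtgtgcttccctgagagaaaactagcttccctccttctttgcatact
Runx2, chr17:44814628-44814877, − strand: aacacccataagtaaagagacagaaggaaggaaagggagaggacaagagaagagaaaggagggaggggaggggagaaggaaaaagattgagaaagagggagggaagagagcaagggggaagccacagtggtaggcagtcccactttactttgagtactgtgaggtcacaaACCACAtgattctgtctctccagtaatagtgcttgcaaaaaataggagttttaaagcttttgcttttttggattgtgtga
The second Ikzf1 window held 2 matches of the GFI1 core, 1 on each strand, and no match of the other motifs, while the window of its first start, 82.0% G and C, held none of the 3. The Runx2 window held 1 match of the Runx core and none of the others. Of the other windows, 1 of the 2 of Runx3 held 2 Runx cores and 1 Ikaros core, and those of Runx1 and Cbfb held none of the 3. A match is a run of letters and not a bound site, and the build differs from that of the count files (GRCm39).

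The share of cells with at least 1 UMI showed how the levels were spread over cells. In spleen Ikzf1 was seen in 90.4% and 91.2% of cells labelled WT and 63.1% and 65.2% of cells labelled KO, and the mean over the cells that had it went from 5.23 and 4.89 to 2.12 and 2.09 UMIs. Runx2 was seen in 46.5% and 45.9% of splenic cells labelled WT and 85.5% and 85.2% of those labelled KO. Splenic Ikzf2 went in share from 71.8% and 75.5% to 95.05% and 95.9%, while its mean over positive cells stayed between 6.24 and 6.63 UMIs. Thymic γδ T cells carried Ikzf2 in 94.3% and 94.7% of cells labelled WT and 95.5% and 95.2% of those labelled KO, while the mean over positive cells went from 16.5 and 16.8 to 8.68 and 7.38 UMIs. Means over positive cells were not adjusted for depth, which moved with the label. The median was 6853 and 6850 UMIs per thymic γδ T cell labelled WT and 5742 and 5665 labelled KO. In spleen it was 4947 and 5025.5 against 5458 and 5402. Ikzf3 was seen in 56.8% and 56.6% of thymic γδ T cells labelled WT and 84.8% and 88.0% of those labelled KO. Runx1 was seen in 96.5% and 95.7% of DN cells labelled WT and in 84.0% and 87.7% of those labelled KO, while its CPM difference did not pass. The intervals given next are exact 95% binomial (Clopper-Pearson) intervals and cover counting error only.

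With every cell thinned to 4000 UMIs, which left out shallower cells, the differences were −35.9 points for splenic Ikzf1, 39.4 points for splenic Runx2, 23.7 points for splenic Ikzf2, 36.4 points for thymic Ikzf3 and −9.08 points for Runx1 in DN cells. Without thinning they were −26.7, 39.2, 21.9, 29.7 and −10.2 points. An exact two-sided permutation test of 2 libraries against 2 cannot give a p below 0.333, the value of each of these comparisons. As a background, Ikzf2 had a UMI in 7 of 27 and 11 of 57 cells carrying the B cell genes Cd79a and Cd79b in the DN libraries labelled KO (25.9%, interval 11.1% to 46.3%, and 19.3%, interval 10.05% to 31.9%, at a median of 12542 and 11419 UMIs per cell). In those labelled WT it had one in 2 of 9 and 2 of 4 (intervals 2.81% to 60.0% and 6.76% to 93.2%, medians of 4290 and 11648). Ikzf4 had a UMI in 1 of 27 and 1 of 57 of these cells labelled KO (3.70% and 1.75%, exact intervals 0.0937% to 19.0% and 0.0444% to 9.39%) and in 2 of 9 and 0 of 4 labelled WT (22.2%, interval 2.81% to 60.0%, and 0%, interval up to 60.2%). Over all cells the share with Ikzf4 was 3.16% and 3.22% in spleen, 7.35% and 7.72% in thymic γδ T cells and 10.9% and 10.0% in DN cells labelled WT, and 0.909% and 0.959%, 3.002% and 1.63%, and 3.72% and 4.08% in those labelled KO. The intervals of these few B-lineage cells are wide. That of KO replicate 2, up to 9.39%, lay below the 10.9% and 10.0% of DN cells labelled WT, while the remaining intervals held both. Each interval held the 3.72% and 4.08% of DN cells labelled KO, so those were not told apart from background. The B-lineage cells came from DN libraries alone. They give no background for the splenic and thymic γδ T libraries, which were run in other pools, so for those shares the question could not be answered. For the DN cells labelled WT the intervals did not give 1 answer, at unlike depths.

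**Figure D3:**
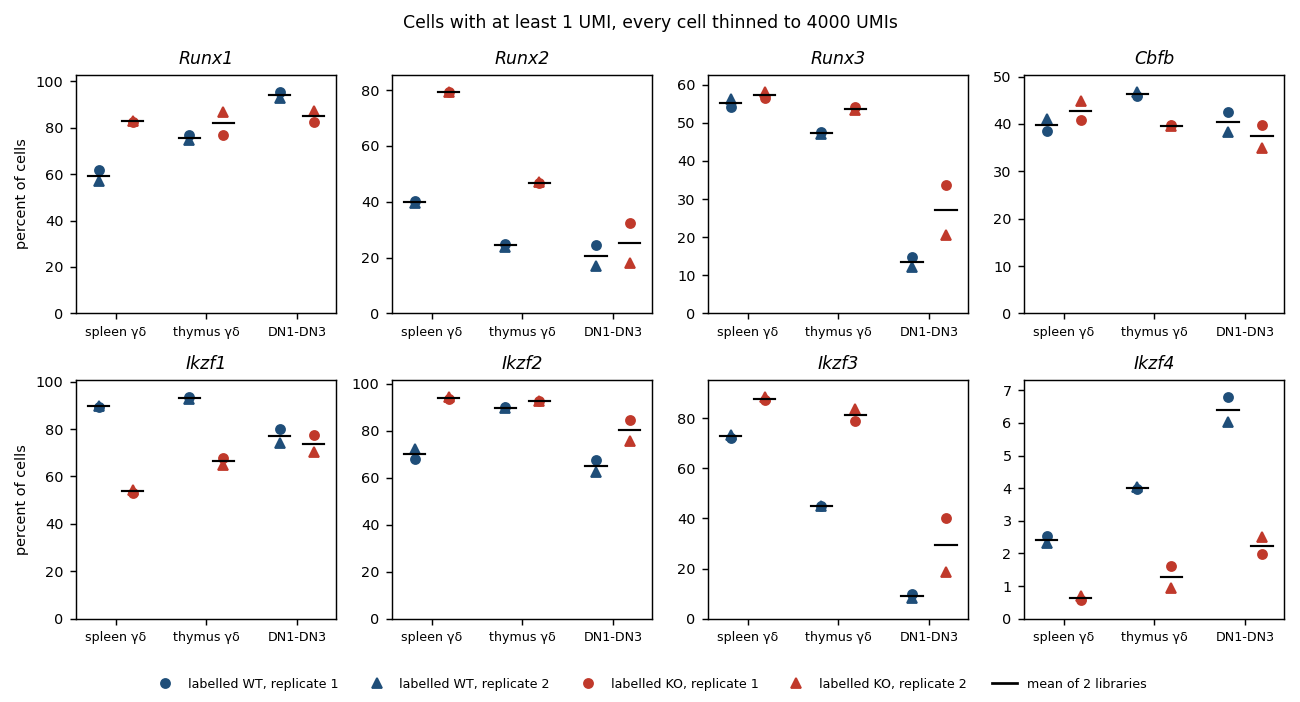
Percent of cells with at least 1 UMI of each gene (y axes, from 0) after every cell was thinned to 4000 UMIs, by compartment (x axes) and library (symbols as in the plot of CPM by library). The difference between labels was −35.9 points for Ikzf1 and 39.4 points for Runx2 in spleen, and 36.4 points for Ikzf3 in thymic γδ T cells.

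Since the libraries labelled KO were rich in Trgv6 cells, the members were read within cells that share the leading γ-chain gene. In splenic libraries labelled WT, cells led by Trgv6 (188 and 229 cells) already differed from cells led by Trgv1 (674 and 1059 cells). They held 347 and 492 against 923 and 885 CPM of Ikzf1 (log2 −1.06, SE 0.15, adjusted p = 0.000661), 741 and 486 against 320 and 294 CPM of Runx1 (log2 1.03, SE 0.14, adjusted p = 0.000606) and 364 and 324 against 136 and 156 CPM of Runx2 (log2 1.29, SE 0.12, adjusted p = 6.68e-05). Ikzf2 was lower at −0.40 (adjusted p = 0.0391, and 0.0602 without the library as a block) and Ikzf4 at −2.05 (adjusted p = 0.0283), the latter from 3 and 2 UMIs in the Trgv6-led cells. In this comparison 5 of 8 members passed, beside 23.1% of all genes. The same WT libraries enter the comparison of the labels in the whole spleen, where the log2 difference was −1.83 for Ikzf1, 0.97 for Runx1, 1.62 for Runx2, 0.34 for Ikzf2 and −1.89 for Ikzf4.

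Within splenic cells led by Trgv6 the label KO still went with less Ikzf1. It fell from 347 and 492 CPM to 215 and 225 CPM (log2 −0.97, SE 0.15, adjusted p = 0.00116), and the labels did not overlap. Runx2 rose from 364 and 324 to 539 and 491 CPM (log2 0.54, SE 0.14, adjusted p = 0.0232) and Ikzf2 from 674 and 811 to 1119 and 1054 CPM (log2 0.51, SE 0.14, adjusted p = 0.0373). Runx1, by contrast, held 741 and 486 CPM with the label WT and 682 and 617 CPM with the label KO, and the difference of 0.04 did not pass (SE 0.20, adjusted p = 0.942). In all 3 of 8 members passed, beside 12% of all genes. The calls for Runx2 and Ikzf2 were lost without KO replicate 1 (adjusted p of 0.361 and 0.468) or KO replicate 2 (0.117 and 0.232), and that for Runx2 also without WT replicate 2 (0.0613). Leaving out WT replicate 1 brought Runx1 to 0.41 (adjusted p = 0.0412), and leaving out WT replicate 2 brought it to −0.25.

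The cells led by Trgv6 were not alike in the 2 labels. A UMI of Trdv4, the δ-chain gene usually paired with Trgv6, was seen in 73.4% and 61.6% of those labelled WT and 90.4% and 89.7% of those labelled KO. Among Trgv6-led cells with a Trdv4 UMI (138 and 141 cells with the label WT), Ikzf1 was 264 and 356 CPM against 215 and 224 CPM, a smaller fall that still passed (log2 −0.55, SE 0.13, adjusted p = 0.0172). Ikzf2 kept its rise there (0.56, adjusted p = 0.0105), while Runx2 no longer passed (0.34, adjusted p = 0.117). This subset was chosen after the values had been seen.

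Ikzf1 fell and Runx1 and Runx2 rose in splenic cells led by Trgv1 and in those led by Trgv4. These are small groups, and the larger one led by Trgv2 was not tested. It held 40.3% and 44.3% of splenic cells labelled WT, against 8.62% and 9.49% led by Trgv1. Ikzf1 in Trgv2-led cells was 921 and 855 CPM with the label WT and 249 and 233 CPM with the label KO. Of these cells 84.3% and 86.3% labelled KO had a Trdv4 UMI, against 6.23% and 6.88% labelled WT. A call of Trgv2 thus did not mark the same kind of cell in the 2 labels. With Trgv1, Ikzf1 went from 923 and 885 to 244 and 231 CPM (log2 −1.91, SE 0.13, adjusted p = 6.15e-14), Runx1 from 320 and 294 to 585 and 604 CPM (log2 0.97) and Runx2 from 136 and 156 to 400 and 431 CPM (log2 1.52), and 5 of 8 members passed beside 39.0% of all genes. Of these calls, that of Ikzf4 rests on 1 and 2 UMIs in the cells labelled KO, against 38 and 42 in those labelled WT, too few for a stable fold. Runx3 passed at −0.30 (adjusted p = 0.0479), a call lost when any 1 library was left out (adjusted p from 0.0655 to 0.327). With Trgv4, Ikzf1 fell by 1.79 on the log2 scale, Runx1 rose by 0.81 and Runx2 by 1.35, 3 of the 7 members tested, beside 27.7% of all genes, and the call for Runx1 was lost when 2 UMIs of Trgv4 were asked for (0.49, adjusted p = 0.136). However, 83.7% and 84.1% of the Trgv1-led cells labelled KO had a Trdv4 UMI, against 4.15% and 4.44% of those labelled WT, so a call of Trgv1 did not mark the same kind of cell in the 2 labels. The same holds for Trgv4-led cells, with a Trdv4 UMI in 66.7% and 79.5% of the 66 and 73 cells labelled KO and 4.27% and 3.41% of those labelled WT. The part of this in the differences was not tested. The test of the difference between the subsets gave 0.95 for Ikzf1 (SE 0.16, adjusted p = 0.00110), −0.99 for Runx2 (SE 0.14, adjusted p = 0.000221), −0.91 for Runx1 (SE 0.15, adjusted p = 0.000827), 0.58 for Ikzf2 (SE 0.12, adjusted p = 0.00332) and 0.40 for Runx3 (SE 0.13, adjusted p = 0.0453, a call lost in each of 3 alternatives, with adjusted p from 0.114 to 0.143), each as Trgv6-led minus Trgv1-led, in a contrast that 14.1% of all genes passed. It subtracts the WT difference between the groups, which was −1.06 for Ikzf1, 1.29 for Runx2, 1.03 for Runx1, −0.40 for Ikzf2 and −0.32 for Runx3. With the label KO, Trgv6-led and Trgv1-led cells held 215 and 225 against 244 and 231 CPM of Ikzf1. For Runx1 they held 682 and 617 against 585 and 604 CPM. These values are thus not separate from the WT difference between the groups.

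**Figure D4:**
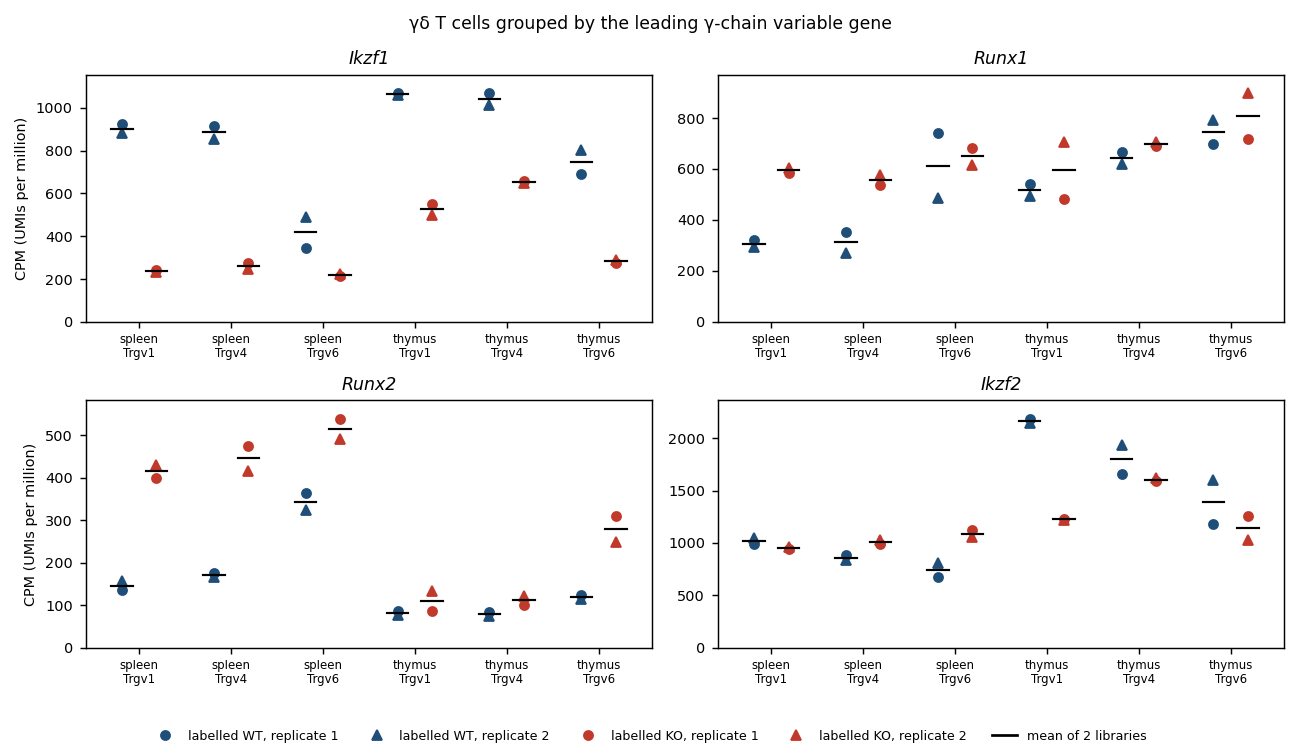
Levels of Ikzf1, Runx1, Runx2 and Ikzf2 in CPM (y axes, from 0) in splenic and thymic γδ T cells led by Trgv1, Trgv4 or Trgv6 (x axes), with symbols as in the plot of CPM by library. Splenic Trgv6-led cells labelled WT hold 347 and 492 CPM of Ikzf1, between the Trgv1-led cells labelled WT (923 and 885 CPM) and all splenic subsets labelled KO.

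In thymic γδ T cells led by Trgv6 the label WT left only 41 and 57 cells, against 2028 and 2691 with the label KO. Ikzf1 fell there from 691 and 803 to 276 and 288 CPM (log2 −1.32, SE 0.13, adjusted p = 3.01e-05), Runx2 rose from 123 and 115 to 311 and 250 CPM (log2 1.32, SE 0.18, adjusted p = 0.000284) and Ikzf3 from 352 and 373 to 766 and 768 CPM (log2 1.16, SE 0.14, adjusted p = 0.000107). Runx1 and Ikzf2 did not pass, at 0.20 and −0.21. In all 5 of 8 members passed, beside 15.9% of all genes, but Runx3 (0.53, adjusted p = 0.0464) did so on a thin margin and lost its call with RLE size factors (0.0532) and without WT replicate 1 (0.162), KO replicate 1 (0.312) or KO replicate 2 (0.186). Ikzf4, which rests on 5 and 4 UMIs in the WT cells, lost its call with the pool as a block (adjusted p = 0.0673) and without WT replicate 1 (0.228) or WT replicate 2 (0.0711). Runx2 lost its call when 2 UMIs of Trgv6 were asked for (0.83, adjusted p = 0.0715). A Trdv4 UMI was seen in 31.7% and 36.8% of thymic Trgv6-led cells labelled WT and in 91.2% and 89.3% of those labelled KO. The 13 and 21 WT cells of this kind were too few for a test under the minimum of 20 cells per library. They held 312 and 438 CPM of Ikzf1 against 275 and 281 CPM with the label KO, 195 and 99.8 against 309 and 246 CPM of Runx2, 586 and 460 against 767 and 755 CPM of Ikzf3 and 520 and 737 against 1253 and 1013 CPM of Ikzf2. The WT values rest on 24 and 79 UMIs of Ikzf1, 15 and 18 of Runx2, 45 and 83 of Ikzf3 and 40 and 133 of Ikzf2. They are a description of 4 of the 8 members and show no difference by themselves. The values of Ikzf1 in the 2 labels lay closer together than among all Trgv6-led cells. Thymic cells led by Trgv1 (720 and 887 labelled WT) were not tested. They held 86.2 and 76.8 CPM of Runx2 with the label WT and 87.1 CPM in KO replicate 1. Runx1 was 540 and 492 against 483 CPM, Ikzf1 1070 and 1061 against 551 CPM, and Ikzf2 2185 and 2141 against 1230 CPM. Differences of the whole thymic γδ T libraries thus need not hold in each group.

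The DN libraries mix several stages, and the label KO went with more cells carrying Il2rb but none of Ptcra, Il2ra and Kit, 1023 and 654 cells (14.6% and 8.65%) against 140 and 151 (1.94% and 2.02%). Of these cells 73.2% to 79.9% had a UMI of Trac, the constant region of the TCR α chain, in all 4 libraries, against 2.69% to 9.08% of cells with Ptcra and Il2ra. Splenic Trgv1-led γδ T cells labelled WT had one in 32.8% and 25.7%, so a Trac UMI alone does not name a cell type. The cells with Il2rb held 215 and 145 CPM of Runx3 and 458 and 351 CPM of Ikzf3 with the label WT, above the 29.6 and 22.6 CPM and 27.5 and 24.9 CPM of cells with Ptcra and Il2ra, the DN3 genes for the pre-TCR α chain and CD25. The whole-compartment rises of Runx3 and Ikzf3 moved with the share of these cells, and its part in them was not tested.

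Within Ptcra and Il2ra carrying cells (1696 to 3050 per library) 2 of 8 members passed, beside 13.9% of all genes. Ikzf2 rose from 346 and 292 to 586 and 478 CPM (log2 0.75, SE 0.12, adjusted p = 0.00344) and Ikzf4 fell from 20.1 and 17.2 to 8.25 and 8.16 CPM (log2 −1.16, SE 0.12, adjusted p = 0.000267), both without overlap of the labels, and were 0.67 and −1.11 without KO replicate 1. Runx3 (0.41) and Ikzf3 (0.33) did not pass, with adjusted p of 0.0512 and 0.581. With the pool as a block 6 members passed, adding Runx3 (0.43, adjusted p = 0.000184), Runx1 (0.30, adjusted p = 0.00357), Runx2 (−0.36, adjusted p = 0.000207) and Cbfb (−0.18, adjusted p = 0.0383). Calls over all genes rose in that fit as well, by the counts given in the section on processing. Ikzf3 was 0.73 without KO replicate 2 (adjusted p = 1.47e-06) and −0.15 without KO replicate 1. Runx2 was −0.58 without KO replicate 1 (adjusted p = 0.00016), and Runx3 passed without WT replicate 1 (0.58, adjusted p = 0.0111), KO replicate 1 (0.36, adjusted p = 0.0369) or KO replicate 2 (0.49, adjusted p = 0.00320).

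In the earlier cells with Kit, the stem cell factor receptor, and without Ptcra (324 to 737 per library), 3 of 8 members passed, beside 9.15% of all genes. Ikzf3 rose from 21.1 and 21.4 to 82.7 and 52.3 CPM (log2 1.68, SE 0.17, adjusted p = 5.17e-07), Ikzf2 from 501 and 451 to 777 and 711 CPM (log2 0.67, SE 0.16, adjusted p = 0.00505) and Ikzf4 fell from 12.8 and 14.1 to 3.87 and 5.92 CPM (log2 −1.40, SE 0.30, adjusted p = 0.00227), on 11 to 99 UMIs per library. Without KO replicate 1 they were 1.39, 0.67 and −1.09, and each still passed. The call for Ikzf2 was lost without WT replicate 1 (adjusted p = 0.185) or WT replicate 2 (0.264), and that for Ikzf4 when 2 UMIs of Kit were asked for (−0.49, adjusted p = 0.726). Runx2 (−0.38) passed with the pool as a block (adjusted p = 0.00814) and without KO replicate 1 (−0.77, adjusted p = 0.000489). A UMI of Trac was seen in 14.5% and 11.0% of these cells labelled KO against 3.26% and 4.29% of those labelled WT.

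Among the cells with Il2rb alone, 1 of the 7 members tested passed, beside 1.38% of all genes. Runx1 fell from 622 and 577 to 355 and 264 CPM (log2 −0.97, SE 0.20, adjusted p = 0.0320), a call lost without KO replicate 1 (0.343) or KO replicate 2 (0.741). Ikzf2 was 471 and 546 CPM with the label WT and 1120 and 863 CPM with the label KO, without overlap, and missed the threshold (log2 0.94, adjusted p = 0.0606), which it passed with the pool as a block (6.15e-06), as did Runx2 (0.75, adjusted p = 0.00230) and Runx3 (0.57, adjusted p = 0.0239). Without WT replicate 1 these 3 also passed, with Ikzf2 at 0.81 (adjusted p = 0.0172), Runx2 at 1.23 (adjusted p = 0.000293) and Runx3 at 0.83 (adjusted p = 0.00958), and without WT replicate 2 Ikzf2 did (1.10, adjusted p = 0.00107).

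**Figure D5:**
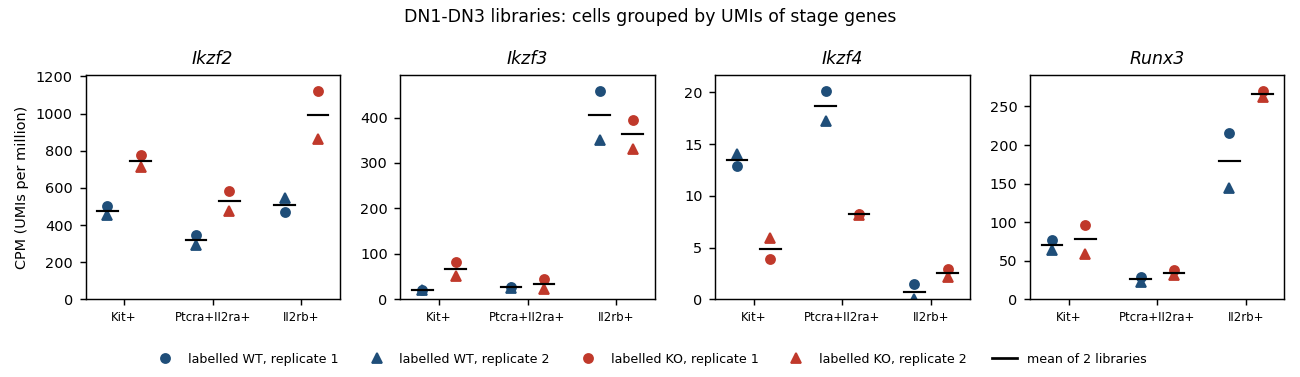
Levels of Ikzf2, Ikzf3, Ikzf4 and Runx3 in CPM (y axes, from 0) in DN libraries, for cells with Kit, cells with both Ptcra and Il2ra, and cells with Il2rb but none of these 3 (x axes), with symbols as in the plot of CPM by library. Ikzf2 is higher with the label KO in all 3 kinds of cell, and Ikzf3 and Runx3 are highest in the cells with Il2rb.

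Other genes of these pathways were read from lists. Of 12 relatives and Runx cofactors found, 8 passed in spleen (5 higher, 3 lower), 7 in thymic γδ T cells (3 and 4) and 4 in DN cells (3 and 1, or 2 and 1 without KO replicate 1), beside 54.7%, 49.7% and 23.0% of all genes. Hipk2, a kinase that phosphorylates Runx1, fell in spleen from 76.8 and 76.4 to 12.5 and 10.00 CPM, and Cbfa2t3, an ETO family corepressor, from 5.13 and 2.18 to 0.619 and 0.273 CPM. Wwtr1, the YAP paralogue TAZ, was named by the size of its fitted difference in spleen and thymic γδ T cells, at 1 and 3 UMIs with the label WT in spleen and 77 and 158 with the label KO. Runx1t1 (ETO) was under 1.60 CPM in every library of the thymic comparisons that named it, Yap1 fell from 37 and 36 to 4 and 1 UMIs in thymic γδ T cells and from 123 and 112 to 24 and 20 UMIs in DN cells, and Tle2, a Groucho corepressor, rose in DN cells from 5 and 8 to 12 and 19 UMIs, a call lost without KO replicate 1 (adjusted p = 0.0701). Such counts are too few for a stable fold. Without KO replicate 1 the log2 difference in DN cells was 3.46 for Runx1t1 against 3.68, and −2.36 for Yap1 against −2.13.

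The 16 listed partners of Ikaros factors were NuRD and Sin3 genes and Ctbp1. Of these, 8 passed in spleen (6 higher, 2 lower), 10 in thymic γδ T cells (2 higher, 8 lower) and 1 in DN cells, beside 54.7%, 49.7% and 23.0% of all genes. Mbd2, the methyl-CpG binding subunit of NuRD, rose in all 3 compartments, from 210 and 201 to 497 and 559 CPM in spleen (log2 1.46), from 166 and 166 to 303.4 and 321 CPM in thymic γδ T cells (log2 1.03) and from 169 and 153 to 240 and 193 CPM in DN cells (log2 0.42, a call lost without KO replicate 1, at 0.30 and adjusted p = 0.0885). Chd3, a NuRD remodelling ATPase, fell from 277 and 317 to 79.3 and 101 CPM in spleen (log2 −1.63) and from 292 and 271 to 169 and 144 CPM in thymic γδ T cells (log2 −0.73). Ctbp1 rose in spleen from 64.7 and 64.0 to 89.0 and 94.5 CPM, and Hdac2 fell in thymic γδ T cells from 93.2 and 99.95 to 56.5 and 54.9 CPM. The cycling genes moved there too, as given above, and their part in these falls was not tested. The median log2 difference of the list was 0.02, −0.22 and −0.13, against 0.00, 0.00 and −0.02 over all genes.

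Of 14 genes known as under Runx control in T cells, 9 passed in spleen (3 higher, 6 lower), 10 in thymic γδ T cells (6 and 4) and 8 in DN cells, all 8 higher (6 without KO replicate 1). Of all genes 54.7%, 49.7% and 23.0% passed, and in DN cells 15.2% were higher. The share of DN cells with Il2rb alone moved with the label as well, and its part in these rises was not tested. Within cells with Ptcra and Il2ra, 5 of 11 list genes tested passed (4 higher, 1 lower). With Kit 4 of 7 passed, all higher, and with Il2rb alone 0 of 10. Of all genes 13.9%, 9.15% and 1.38% passed in these groups. Gzmb, for granzyme B, rose from 8.91 and 6.84 to 199 and 176 CPM in spleen and from 1.05 and 1.31 to 18.9 and 15.6 CPM in thymic γδ T cells. Csf2, for GM-CSF, rose from 1.48 and 1.63 to 34.0 and 52.8 CPM in thymic γδ T cells and from 0.210 and 0.193 to 6.43 and 2.26 CPM in DN cells. Cd8b1 fell in spleen from 112 and 100.1 to 5.38 and 4.40 CPM, and Eomes, a T-box factor of type 1 cells, fell in thymic γδ T cells from 12.4 and 9.11 to 1.09 and 0.749 CPM. In DN cells Itgae, the integrin chain CD103, rose from 18.8 and 14.8 to 261 and 106 CPM, and Prf1, for perforin, from 1.10 and 0.995 to 12.6 and 4.91 CPM. Without KO replicate 1 the log2 difference in DN cells was 2.70 for Itgae against 3.43, 2.27 for Prf1 against 3.03 and 3.52 for Csf2 against 4.38, and each still passed. Cd4 was counted 4 and 5 times in splenic libraries labelled WT and 0 times in both labelled KO, from which no fold is given.

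Of the 13 tested genes known as under Ikaros family control, 9 passed in spleen, all lower, 9 in thymic γδ T cells (1 higher, 8 lower) and 3 in DN cells, all higher. Without KO replicate 1, 3 of 14 tested passed in DN cells. Of all genes 54.7%, 49.7% and 23.0% passed, with 26.1% lower in spleen and 23.7% lower in thymic γδ T cells. Bcl6, a repressor of transcription, fell in spleen from 51.6 and 50.6 to 1.92 and 1.77 CPM. Dntt, the terminal transferase of V(D)J joining, fell from 6.13 and 8.32 to 0.171 and 0.432 CPM in spleen and from 122 and 142 to 30.8 and 19.5 CPM in thymic γδ T cells. Il7r rose from 230 and 246 to 959 and 1129 CPM in thymic γδ T cells and from 239 and 193 to 778 and 379 CPM in DN cells, where Il10 went from 0.227 and 0.337 to 1.84 and 3.22 CPM and Dtx1, a Notch target, from 28.6 and 28.8 to 46.6 and 62.1 CPM. Without KO replicate 1 the rise of Il7r in DN cells was 0.86 against 1.41, and Il7r, Il10 and Dtx1 still passed. Cd4 fell in thymic γδ T cells from 1.82 and 2.72 to 0.496 and 0.441 CPM. Cd4 and Cd8a stand in both lists, and these counts describe the lists without a test of them.

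As a last description, each member was compared with all 8608 genes of at least 10 CPM on average by Pearson's r of log2(CPM + 1) over the 12 libraries, which share pools, tissues and labels. Runx3 and Ikzf3 followed each other closely (r = 0.98), while Runx2 and Ikzf4 ran in opposite directions (r = −0.90), as did Runx1 and Runx3 (r = −0.85). The most like genes were Dnajc6, Akr1c13 and Slc39a11 for Runx1 (r of 0.97 for each), Runx2os1, Mob1a and Map3k14 for Runx2 (0.99 each) and Cotl1, Rrad and Dennd1c for Runx3 (0.99 to 1.00). Runx2os1 is an antisense gene at the Runx2 locus, and 3′ reads of such a pair are told apart only by strand. For Cbfb the most like were Med13, Exoc5 and Prkaca (0.90 to 0.92), for Ikzf1 Elk4, Kcnrg and Map4k4 (0.98 each), for Ikzf2 Extl3, Inpp5b and Smim36 (0.97 each), for Ikzf3 Irf2bpl, Retreg1 and Cd37 (0.99 each) and for Ikzf4 Golm2, Pabpc1 and Frat2 (0.97 to 0.98).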

How the data were processed

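Single-cell libraries were made with 10x Genomics 3′ chemistry from sorted cells. Per the labels and the submitters' processing notes, the authors aligned reads with Cell Ranger 8.0.1 against GRCm39 and split each pool by hashtag, and what they deposited are unnormalized counts of UMIs, 1 matrix per demultiplexed library. The genotype of a library was read from the hashtag label of its pool. No strand setting was given in the sources used here.

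A barcode was kept (96911 of 97404) if it held 500 UMIs or more from 200 genes or more, with mitochondrial UMIs at 20% or less. No doublet caller was run. The authors' split by hashtag cannot remove doublets of cells with the same hashtag, which stay in each library. UMIs were summed per library, or per library and group of cells where each library had at least 20, and compared with edgeR 4.0.16 in R 4.3.3 (TMM, default filter on low counts, robust quasi-likelihood F test, two-sided). Genes named as ribosomal, Gm with a number or mitochondrial (9538) were left out. P-values were adjusted by Benjamini and Hochberg over all genes tested, with a threshold of 0.05, and the SE was derived from the F statistic. The 12 libraries shared a fit for contrasts of whole compartments, and cell groups used 4 libraries, or 8 sums with the library as a block. The fit was tested on simulated data. CPM were scaled to all UMIs of the library or cell group. Cells were grouped by the Trgv gene with most UMIs, without ties, or by at least 1 UMI of the genes named. Sequences of Trgv genes are alike, so these calls are uncertain. Reads of overlapping genes were taken as counted.

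WT and KO libraries of 1 pool shared a droplet run, which the pool number marks. Deviations from the group means correlated within pools with r = 0.50 in spleen, 0.04 in thymic γδ T cells and 0.38 in DN cells over 8608 genes. Replicates differed by more than sampling noise (chi-square per degree of freedom from 9.55 to 83.9), so none was taken as a copy of another library. This does not show that they came from separate mice. Named genes were the 8 members, up to 3 called genes of each list with the largest difference per compartment, and the 3 most like genes of each member. The members and lists were chosen with earlier results of these data known. Alternatives were RLE size factors, DESeq2 1.42.0, other filters on counts, all barcodes, all genes, the pool as a block, each library left out and stricter cell groups, some added after the data were seen. Shares, ratios and plots were made in Python 3.11.15 (matplotlib 3.10.9, pandas 2.3.3, scipy 1.17.1 and numpy 2.4.6).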

Additional observations from a re-analysis of the deposited data

Results flagged for a closer look

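The KO minus WT difference was tested between compartments and between groups of splenic cells, for 8 members in each of 3 contrasts, and 10 such differences passed edgeR's quasi-likelihood test, where 29.6%, 21.9% and 14.1% of all genes passed in the 3 contrasts described in turn. Comparing spleen with thymic γδ T cells, Ikzf1 differed by −0.69 on the log2 scale (SE 0.15, adjusted p = 0.00723), with a fall in both, and Ikzf2 by 0.73 (SE 0.20, adjusted p = 0.0211, lost in 6 of 8 fits that left out 1 library). Comparing thymic γδ T with DN cells, Ikzf1 differed by −1.06 (SE 0.15, adjusted p = 0.00119), Ikzf2 by −1.30 (SE 0.20, adjusted p = 0.00184) and Runx3 by −0.90 (SE 0.28, adjusted p = 0.0426, also lost in 6 of 8). Comparing splenic Trgv6-led with Trgv1-led cells, the differences were −0.91 for Runx1 (adjusted p = 0.000827), −0.99 for Runx2 (adjusted p = 0.000221), 0.40 for Runx3 (adjusted p = 0.0453, lost in each of 3 alternatives), 0.95 for Ikzf1 (adjusted p = 0.00110) and 0.58 for Ikzf2 (adjusted p = 0.00332). The share of cells with a Trdv4 UMI moved with the label in both of these cell groups, most in the Trgv1-led one, and its part was not tested. The contrast of these groups subtracts their WT difference, which had the opposite sign for each member named for it.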

How the results depend on the processing

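Of 64 member differences that passed, none turned direction in 600 alternative values, of which 527 still passed and 73 did not. Of 62 that did not pass, 545 of 623 alternative values kept direction and side, 48 passed and 30 turned direction. RLE in place of TMM moved the median of all genes by at most 0.024 on the log2 scale. With 2 libraries per label, each left out in turn, 1 library stood alone in its group and was assumed to vary like the others. With 1 library left out, the counts of members called are not set beside a share of all genes, so they are not read further. For WT spleen against thymic γδ T cells, fewer of all genes passed as well in each such fit. The causes of the changes between fits were not tested.

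With the pool as a replicate block, members called went from 2 to 6 in Ptcra and Il2ra cells (genes 1770 to 3590) and from 1 to 4 in Il2rb cells (genes 134 to 458). For thymic γδ T against DN cells Runx2 passed with the block (1.03, adjusted p = 0.00876), and for spleen against thymic γδ T cells so did Runx1 (0.54, adjusted p = 0.0396) and Cbfb (0.34, adjusted p = 0.0320). Beyond these and the values given beside the results, the pairing changed no other call.

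Genes called in DN cells went from 3427 to 2077 with 4 libraries alone. DESeq2 called 2470 genes in Trgv1-led, 1167 in Trgv4-led and 565 in Kit cells, against 3889, 2293 and 1004. In Il2rb cells it called 2 members, against 1 in the main fit beside 1.38% of all genes. The share of all genes in that DESeq2 fit is not given here, so the member count is not read further. Without the filter on low counts, 3 members and 411 genes passed in Il2rb cells. Asking for 2 UMIs left 3 members and 2493 genes in Trgv1-led, 895 genes in Trgv4-led, 2 members and 598 genes in thymic Trgv6-led, 437 genes in Kit and 88 genes in Il2rb cells. Asking for a Trdv4 UMI as well, added after seeing the data, left 846 genes in splenic Trgv6-led cells, and in thymic ones it could not be fitted, with under 20 cells in a library.

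With 1 library left out, members called ranged from 3 to 4 (WT spleen against thymus), 1 to 3 (spleen against thymic γδ T differences), 1 to 4 (splenic Trgv6), 3 to 4 (thymic Trgv6), 2 to 4 (Ptcra and Il2ra) and 0 to 4 (Il2rb). Genes called ranged from 1678 to 5040 in DN cells, 4660 to 5366 for WT thymic γδ T against DN cells, 2637 to 3605 and 1887 to 3945 for the 2 differences between compartments, 560 to 1973 in splenic and 902 to 1275 in thymic Trgv6-led cells, 1126 to 2286 in Ptcra and Il2ra, 621 to 1125 in Kit and 79 to 541 in Il2rb cells.

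The values that turned direction had not passed. In DN cells, with 1 library left out, Runx1 ranged from −0.14 to 0.023 and Runx2 from −0.11 to 0.90. For thymic γδ T against DN cells, Ikzf4 was −0.016 with at least 100 UMIs, −0.0062 with all genes and −0.40 to 0.38 with 1 library left out, Cbfb −0.17 to 0.0084 and Ikzf3 −0.95 to 0.22. In splenic Trgv6-led cells Runx1 was −0.041 with 2 UMIs, −0.12 with Trdv4 and −0.25 to 0.41 with 1 library left out, and Ikzf4 0.38, 0.75 and −0.53 to 0.37. With 2 UMIs, Cbfb was 0.23 and Ikzf3 −0.41 in Trgv4-led cells, Cbfb −0.11 in thymic Trgv6-led cells, Runx1 −0.041 and Runx3 −0.18 in Kit cells, Cbfb −0.048 in Il2rb cells, and Ikzf3 0.0086 for Trgv6-led against Trgv1-led cells. In thymic Trgv6-led cells Ikzf2 was −0.36 to 0.025 with 1 library left out, and Runx1 −0.0097 to 0.35. The same omissions gave −0.15 to 0.73 for Ikzf3 in Ptcra and Il2ra cells, −0.088 to 0.15 for Runx1 and −0.16 to 0.43 for Runx3 in Kit cells, and −0.11 to 0.30 for Cbfb in Il2rb cells. The share of splenic cells with Runx3 differed by 7.11 points unthinned and −0.694 points at 2000 UMIs per cell, and of 48 such thinned values 26 moved by more than the spread of replicates.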
